A study of Mus musculus with 12 samples.

Results

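The genes described here encode the enzymes that turn arachidonic acid into leukotrienes and prostaglandins, and they were followed across subcutaneous tumors with and without the pantetheinase Vnn1. The list held 10 symbols: Ltc4s, Alox5, Alox5ap, Lta4h, Ptgs1, Ptgs2, Ptges, Ptgis, Hpgds and Ptgds. They were listed by symbol with results of these arrays known, Ltc4s having been selected on its rise in VR over R tumors. A symbol with several probesets would have been read from the one of greatest average level across the 12 arrays, and 9 of the 10 could be named, among 19938 genes with a probeset of their own. Each of these 9 had a single probeset, so no probeset was chosen by its level, and all 9 passed the filter on low values. Ptgs1 was not analysed here.

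Phospholipases free arachidonic acid from membranes. In the leukotriene branch, 5-lipoxygenase (Alox5), presented with substrate by its activating protein (Alox5ap), forms leukotriene A4, which Lta4h converts to leukotriene B4 and Ltc4s conjugates with glutathione to leukotriene C4. In the prostanoid branch, the cyclooxygenases (Ptgs1, Ptgs2) form the common precursor, which Ptges turns into prostaglandin E2, Ptgis into prostacyclin, and Hpgds and Ptgds into prostaglandin D2. In connective tissues the leukotriene branch is best known from macrophages, mast cells and granulocytes, whereas fibroblasts are known for cyclooxygenase and prostaglandin E synthase.

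Expression was measured on whole-transcript mouse gene arrays in 12 tumors, 4 each of 3 groups. R tumors grew from cells given a vector with oncogenic Ras and no Vnn1. VdR and VR tumors grew from cells given a vector with both Ras and Vnn1, which was catalytically deficient in VdR and intact in VR. All 3 lines were made from J2A cells, a myofibroblast line derived from aortic fibroblasts of C57BL/6 mice that lacked p16, p19 and Vnn1, so these deletions and Ras were shared by every group, R tumors included. Genes were delivered with retroviral vectors, the cells were grafted under the back skin of nude mice kept on a normal diet, and tumors were collected 2 to 3 weeks later. Within a group the tumors were grafts of 1 line, so p-values measure the spread between grafts and not between transductions. Nude mice lack mature T cells but keep macrophages, mast cells and other innate cells. The labels describe RNA of sorted subsets and the methods RNA of the whole tumor mass. In whole tumors, fewer cells of a type and less RNA per cell cannot be told apart.

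The log2 value of Vnn1 was between 5.53 and 5.83 in R tumors, between 11.37 and 11.73 in VdR tumors and between 10.54 and 11.26 in VR tumors, as the labels would have it. Fibroblast markers gave a mean log2 value between 10.94 and 11.78 in all tumors, and Acta2, the smooth muscle actin of myofibroblasts, lay between 11.19 and 12.29. Skeletal muscle markers stood apart in 5 tumors (R tumors 2 and 5, VdR tumors 2 and 4, and VR tumor 2). Their mean log2 value was between 8.46 and 9.32 there, against at most 7.08 in the other tumors. For the listed genes and the other eicosanoid genes named below, calls lost or gained without these 5 tumors are stated with the gene. For mast cell markers only their count is given. All values below are log2 intensities, in which a difference of 1 is a doubling, and adjusted p-values are from limma with Benjamini-Hochberg adjustment over the 16573 genes that passed the filter.

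Genes of the leukotriene branch up to leukotriene C4 were higher in both groups of Vnn1 tumors than in R tumors. In VR versus R, Alox5 and Alox5ap rose 2.23-fold and 2.80-fold, and in VdR versus R, Alox5, Alox5ap and Ltc4s rose 2.75-fold, 2.90-fold and 3.14-fold. Lta4h, which makes leukotriene B4 instead, fell 1.25-fold in VR tumors. In the prostanoid branch, Hpgds, the prostaglandin D synthase of hematopoietic cells, rose in both groups, Ptges fell in VR tumors, and Ptgs2, Ptgis and Ptgds did not pass the test in any comparison. Leaving aside Ltc4s, which was chosen on that contrast, 5 of 8 genes passed in VR versus R, 3 higher and 2 lower, where 21.1% of all genes tested passed, 13.6% higher and 7.48% lower. In VdR versus R, 4 of 9 passed, all higher, where 9.38% of all genes passed, 6.58% higher and 2.81% lower. Ltc4s was chosen with the same R tumors. Without it, 3 of 8 passed in VdR versus R and the groups did not overlap for 3 of 8, all higher. In VR versus VdR, 1 of 9 passed, which was lower, where 3.44% of all genes passed, 1.77% higher and 1.67% lower. The groups did not overlap for 5 of the 8 genes other than Ltc4s in VR versus R, 3 higher and 2 lower (all genes 25.8%, with 15.3% higher and 10.5% lower), for 4 of 9 in VdR versus R, all higher (all genes 14.2%, with 9.73% higher and 4.50% lower), and for 2 of 9 in VR versus VdR, both lower (all genes 12.6%, with 5.88% higher and 6.77% lower). Without the 5 tumors with muscle markers, 5 of the 8 genes other than Ltc4s passed by limma in VR versus R (16.9% of all genes). In VdR versus R 5 of 9 passed by limma (6.76% of all genes), or 4 of 8 without Ltc4s. In VR versus VdR 0 of 9 passed by limma (0.0422%, 7 genes in all), with 3 of the 9 at an unadjusted p under 0.05. The genes were listed with these results known, and nothing is read from these counts beyond the values of each gene. VR versus R and VdR versus R share the R tumors, so their differences are given side by side.

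**Figure D1:**
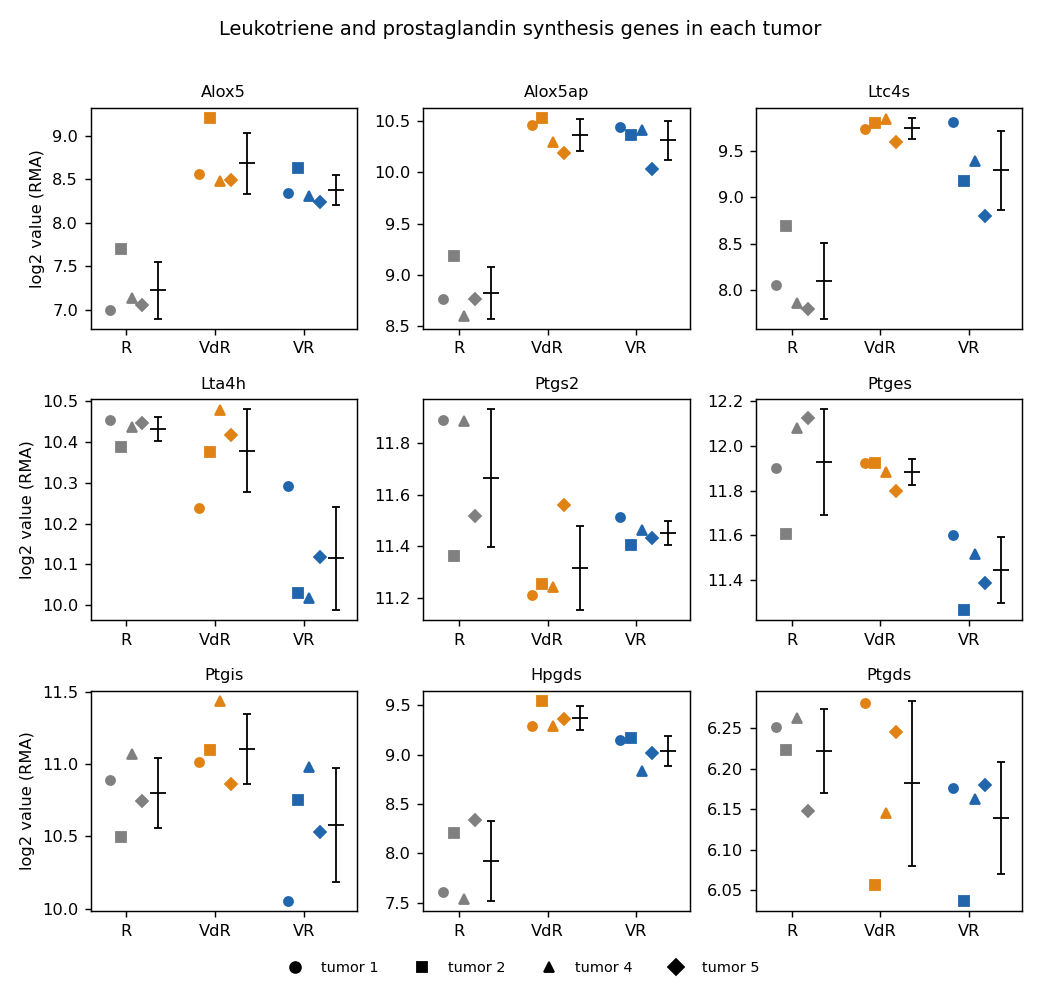
Log2 values (vertical axes, which do not start at 0) of the 9 measured genes in single tumors (points) of the R, VdR and VR groups, with black marks for the mean ± SD of 4 tumors. Alox5, Alox5ap, Ltc4s and Hpgds are higher in every VdR and VR tumor than in any R tumor, whereas the R and VR values of Ptgs2, Ptgis and Ptgds overlap.

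Alox5, the enzyme that starts leukotriene synthesis, had log2 values of 7.00, 7.70, 7.13 and 7.06 in R tumors 1, 2, 4 and 5. In VdR tumors 1, 2, 4 and 5 it was at 8.55, 9.20, 8.48 and 8.49, and in the VR tumors of the same numbers at 8.34, 8.63, 8.30 and 8.24. Tumor 2 was the highest of each group, and no VdR or VR tumor reached down to the R tumors. The difference was 1.15 ± 0.18 (SE, n = 4 against 4, limma adjusted p = 0.00114) in VR versus R and 1.46 ± 0.18 (limma adjusted p = 4.40e-04) in VdR versus R. Between VR and VdR it was -0.30, with a 95% confidence interval from -0.70 to 0.09 (limma adjusted p = 0.399). VdR tumor 2 stood well above the other VdR tumors, and without it the VdR versus R difference was 1.28.

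Alox5ap encodes the membrane protein that hands arachidonic acid to 5-lipoxygenase. Its log2 values were 8.76, 9.19, 8.60 and 8.76 in R tumors 1, 2, 4 and 5, 10.46, 10.53, 10.29 and 10.18 in the VdR tumors, and 10.44, 10.36, 10.41 and 10.03 in the VR tumors. The lowest Vnn1 tumor, VR tumor 5, was still above R tumor 2, the highest of its group. Alox5ap rose by 1.48 ± 0.13 (SE, limma adjusted p = 6.21e-05) in VR versus R and by 1.54 ± 0.13 (limma adjusted p = 6.45e-05) in VdR versus R. The VR and VdR tumors overlapped, and their difference of -0.05 had a confidence interval from -0.33 to 0.23.

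Ltc4s, which joins glutathione to leukotriene A4, is the gene whose rise in VR tumors was known when the list was made, and its VR versus R difference is given as a description with no test. Its log2 values were 8.05, 8.69, 7.86 and 7.79 in R tumors 1, 2, 4 and 5, and 9.74, 9.81, 9.85 and 9.60 in the VdR tumors. In the VR tumors it was at 9.82, 9.18, 9.39 and 8.79, a wider spread than in VdR (SD 0.43 against 0.11), with VR tumor 5 just above R tumor 2. VR tumors were 1.20 above R tumors (95% confidence interval 0.73 to 1.66), 2.29-fold. VdR tumors were 1.65 ± 0.21 (SE, limma adjusted p = 5.72e-04) above R tumors. That comparison shares the R tumors on which Ltc4s was chosen, so its p-value is not free of the choice. The VR versus VdR difference was -0.45, with an interval from -0.92 to 0.0099, and did not pass (limma adjusted p = 0.273).

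Lta4h, the hydrolase of the leukotriene B4 route, did not rise. It lay between 10.39 and 10.46 in R tumors and between 10.24 and 10.48 in VdR tumors, and at 10.29, 10.03, 10.02 and 10.12 in VR tumors 1, 2, 4 and 5. Every VR tumor was below every R tumor, and VR tumor 1 was the only one above the lowest VdR tumor. Lta4h fell by 0.32 ± 0.069 (SE, limma adjusted p = 0.00710) in VR versus R, but the fall was 0.30 with a limma adjusted p of 0.0689 without the 5 tumors with muscle markers. The VR versus VdR difference of -0.26 (95% confidence interval -0.41 to -0.11) had a limma adjusted p of 0.0560, which became 0.0476 without VdR tumor 1 and 0.0244 without VR tumor 1. In VdR versus R, Lta4h differed by -0.05 (limma adjusted p = 0.708).

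**Figure D2:**
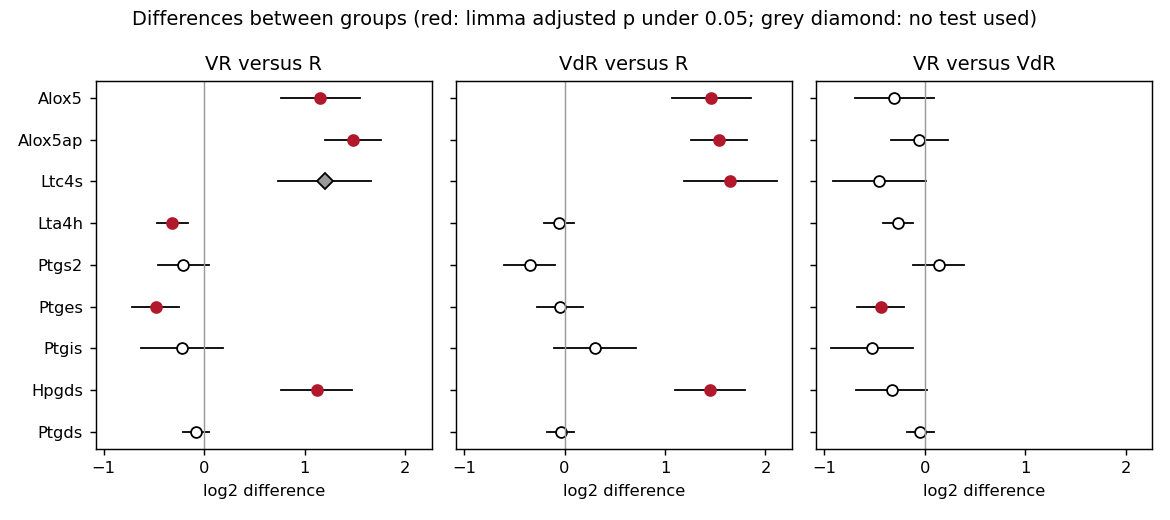
Log2 difference between group means (horizontal axes; bars, 95% confidence interval) of each of the 9 genes in VR versus R, VdR versus R and VR versus VdR. Red points passed a limma adjusted p of 0.05 and the grey diamond, Ltc4s in VR versus R, is a description; Alox5, Alox5ap and Hpgds lie between 1.12 and 1.54 in both comparisons with R tumors.

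Hpgds, the glutathione-dependent prostaglandin D synthase of mast cells, macrophages and other hematopoietic cells, moved as the leukotriene genes did. Its log2 values were 7.61, 8.21, 7.54 and 8.34 in R tumors 1, 2, 4 and 5, 9.29, 9.55, 9.29 and 9.36 in the VdR tumors and 9.15, 9.17, 8.84 and 9.02 in the VR tumors. The groups did not overlap with one another in any comparison, although the VR versus VdR difference of -0.33 did not pass (95% confidence interval -0.68 to 0.02, limma adjusted p = 0.297). Hpgds rose by 1.12 ± 0.16 (SE, limma adjusted p = 7.62e-04) in VR versus R, 2.17-fold, and by 1.45 ± 0.16 (limma adjusted p = 2.28e-04) in VdR versus R, 2.73-fold. Ptgds, the lipocalin-type synthase of the same product, lay between 6.04 and 6.28 in all 12 tumors, and its differences were -0.08 in VR versus R (limma adjusted p = 0.346) and -0.04 in VdR versus R (limma adjusted p = 0.758).

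Ptges, the inducible microsomal prostaglandin E synthase, was lowest in VR tumors. It was at 11.90, 11.60, 12.08 and 12.12 in R tumors 1, 2, 4 and 5, between 11.80 and 11.93 in VdR tumors, and at 11.60, 11.27, 11.52 and 11.39 in VR tumors 1, 2, 4 and 5. VR tumor 1 lay just below R tumor 2, and no VR tumor reached the VdR tumors. Ptges fell by 0.48 ± 0.11 (SE, limma adjusted p = 0.00736) in VR versus R, a 1.40-fold fall, and differed by -0.04 in VdR versus R (limma adjusted p = 0.853). In VR versus VdR it fell by 0.44 ± 0.11 (95% confidence interval -0.67 to -0.21, limma adjusted p = 0.0457), 1.36-fold. This call was lost without R tumor 1 (limma adjusted p = 0.0661), VdR tumor 1 (0.0896), VdR tumor 2 (0.0847), VdR tumor 4 (0.0999), VdR tumor 5 (0.0779), VR tumor 2 (0.115), VR tumor 4 (0.0911) or VR tumor 5 (0.102), and without the 5 muscle-bearing tumors (0.133).

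Ptgs2, the inducible cyclooxygenase, had log2 values of 11.89, 11.36, 11.89 and 11.52 in R tumors 1, 2, 4 and 5, against 11.21, 11.25, 11.24 and 11.56 in the VdR tumors and 11.40 to 11.51 in the VR tumors. R tumor 2 lay below every VR tumor and VdR tumor 5 above R tumors 2 and 5, so the groups overlapped. Its differences were -0.35 ± 0.12 (SE, limma adjusted p = 0.0887) in VdR versus R and -0.21 ± 0.12 (limma adjusted p = 0.219) in VR versus R. In VdR versus R the difference passed without R tumor 2 (-0.45, limma adjusted p = 0.0221), without VdR tumor 5 (-0.43, limma adjusted p = 0.0405) and without the 5 muscle-bearing tumors (-0.50, limma adjusted p = 0.0401), and in VR versus R it also passed without those 5 tumors (-0.42, limma adjusted p = 0.0312). Ptgis, the prostacyclin synthase of vessels and fibroblasts, ranged from 10.50 to 11.07 in R tumors, from 10.86 to 11.44 in VdR tumors and from 10.05 to 10.98 in VR tumors. Its VR versus VdR difference of -0.52 (95% confidence interval -0.93 to -0.12) did not pass (limma adjusted p = 0.143), and neither did those of -0.22 in VR versus R (limma adjusted p = 0.412) and 0.30 in VdR versus R (limma adjusted p = 0.374).

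The sequences upstream of 3 of the 4 genes that were higher in both groups of Vnn1 tumors are shown because these genes moved together. Ltc4s is among them, but it was chosen on its rise in VR versus R, so its place among the 4 is a description. Each is the 250 bases before the annotated start of the gene, read 5′ to 3′ on the gene's strand. Capitals mark GAGGAA, a form of the letters that myeloid ETS factors bind. The windows are RefSeq sequences on GRCm38.p6, all from the minus strand: Alox5 at chr6:116461179-116461428, Ltc4s at chr11:50238533-50238782 and Hpgds at chr6:65144731-65144980.
Alox5: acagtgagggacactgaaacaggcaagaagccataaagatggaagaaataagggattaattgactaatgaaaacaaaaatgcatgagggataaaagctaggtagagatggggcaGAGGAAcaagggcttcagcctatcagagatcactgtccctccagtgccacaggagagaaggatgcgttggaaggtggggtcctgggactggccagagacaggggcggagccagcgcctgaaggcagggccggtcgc
Ltc4s: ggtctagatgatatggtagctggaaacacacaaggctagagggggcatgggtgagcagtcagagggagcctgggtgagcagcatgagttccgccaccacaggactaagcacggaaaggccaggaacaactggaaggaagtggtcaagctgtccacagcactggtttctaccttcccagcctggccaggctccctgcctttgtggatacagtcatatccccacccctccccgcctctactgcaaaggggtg
Hpgds: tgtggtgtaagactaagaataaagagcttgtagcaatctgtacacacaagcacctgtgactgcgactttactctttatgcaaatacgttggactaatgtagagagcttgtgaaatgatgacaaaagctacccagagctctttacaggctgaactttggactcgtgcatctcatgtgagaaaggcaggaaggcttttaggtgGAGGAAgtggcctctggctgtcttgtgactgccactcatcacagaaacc
GAGGAA starts at position -136 of Alox5 and at -49 of Hpgds, counted from the annotated start, in each on the gene's own strand. The window of Ltc4s holds the shorter GGAA but not GAGGAA. Other forms of ETS letters were not searched, so their absence from that window is not shown. On either strand GAGGAA is found in 23.3% of the 32851 promoters of the same length. The AP-1 letters TGACTCA or TGAGTCA (one site read on opposite strands, in 4.46% of promoters), the hypoxia response core ACGTG (16.6%) and TATAAA (12.4%) were searched on both strands and matched in none of the 3 windows. GC content was 52.8% for Alox5, 57.6% for Ltc4s and 45.2% for Hpgds. A match here is a description of letters and not a site of binding.

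Mean values of macrophage, dendritic cell, NK cell and platelet markers were higher in every Vnn1 tumor than in any R tumor. Macrophages are cells that carry 5-lipoxygenase and its activating protein. The mean log2 value of the 19 macrophage markers tested lay between 9.24 and 9.57 in R tumors, between 10.33 and 10.61 in VdR tumors and between 10.20 and 10.39 in VR tumors, so neither Vnn1 group overlapped with R. Of the 19, 16 rose in VR versus R and 18 in VdR versus R, with none lower and median differences of 1.00 and 1.10 against -0.01 and 0.0038 over all genes. Of all genes tested, 13.6% were higher in VR versus R, 6.58% in VdR versus R and 1.77% in VR versus VdR. Adgre1 differed from R by 1.45 in VR and 1.55 in VdR tumors, Csf1r by 1.16 and 1.31, and no marker of the list passed in VR versus VdR. The 9 dendritic cell markers averaged between 6.34 and 6.41 for R, between 6.53 and 6.78 for VdR and between 6.86 and 7.31 for VR tumors, and 7 of them rose in VR versus R, 1 in VdR versus R and 4 in VR versus VdR. The 5 NK cell markers averaged between 5.87 and 6.10 for R, between 6.37 and 6.54 for VdR and between 6.52 and 6.82 for VR tumors, and 3, 1 and 3 of them rose in these comparisons. The 5 platelet markers averaged between 7.02 and 7.23 for R, between 7.31 and 7.50 for VdR and between 7.35 and 7.64 for VR tumors, and of these only Pf4 passed against R, 2.46-fold higher in VR and 2.83-fold higher in VdR tumors. Unlike the macrophage score, the dendritic cell score was higher in every VR than in every VdR tumor. The part of these markers in the differences of Alox5, Alox5ap, Ltc4s and Hpgds was not tested.

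Mast cell markers followed another order. The R tumors averaged 6.71 to 7.43, the VdR tumors 7.20 to 8.18, and VR tumors 1, 2, 4 and 5 stood at 8.01, 8.12, 8.23 and 6.78. VR tumor 5 thus stood at the level of R tumors, and it was also the lowest VR tumor for Alox5, Alox5ap and Ltc4s, but not for Hpgds. The macrophage, dendritic cell, NK cell and neutrophil scores were lowest in VR tumor 5 among VR tumors too (10.20, 6.86, 6.52 and 7.34). The platelet score (7.61) was not, and among VR tumors a low value in tumor 5 was not particular to mast cell markers. Of 11 mast cell markers tested, Kit and Fcer1a rose and Gata2 fell in VR versus R (all genes 13.6% higher and 7.48% lower). In that comparison 8 of the 11 had an unadjusted limma p under 0.05. In VdR versus R 0 passed by limma (all genes 9.38%), with 3 at an unadjusted p under 0.05. Cpa3, the mast cell carboxypeptidase, differed by 2.31 (limma adjusted p = 0.0520) and 1.90 (limma adjusted p = 0.160) in these comparisons. The count of 3 in VR versus R was 1 without R tumor 2, R tumor 4, VR tumor 1, VR tumor 2 or VR tumor 4, or without the 5 muscle-bearing tumors, 5 without R tumor 5 and 8 without VR tumor 5. The mast cell marker Mrgprb2 was below the filter. Of the markers of granulocytes, which also use this branch, 6 of 10 neutrophil markers named (S100a8, Ly6g, Retnlg, Cxcr2, Mmp8 and Ngp) and the eosinophil markers Prg2, Ear6 and Il5ra were below the filter, and the 3 eosinophil markers tested averaged between 5.59 and 5.81 in all tumors. The 4 neutrophil markers tested averaged between 7.22 and 7.41 for R, between 7.42 and 7.59 for VdR and between 7.34 and 7.52 for VR tumors. Of these 4, 1 rose in VR versus R and 0 in VdR versus R (all genes 13.6% and 6.58% higher). Their levels were far apart, with Mmp9 between 10.31 and 11.52 and S100a9 and Camp between 5.66 and 6.11 in all tumors. The part of mast cell and granulocyte markers in the values of the leukotriene genes and Hpgds was not tested.

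**Figure D3:**
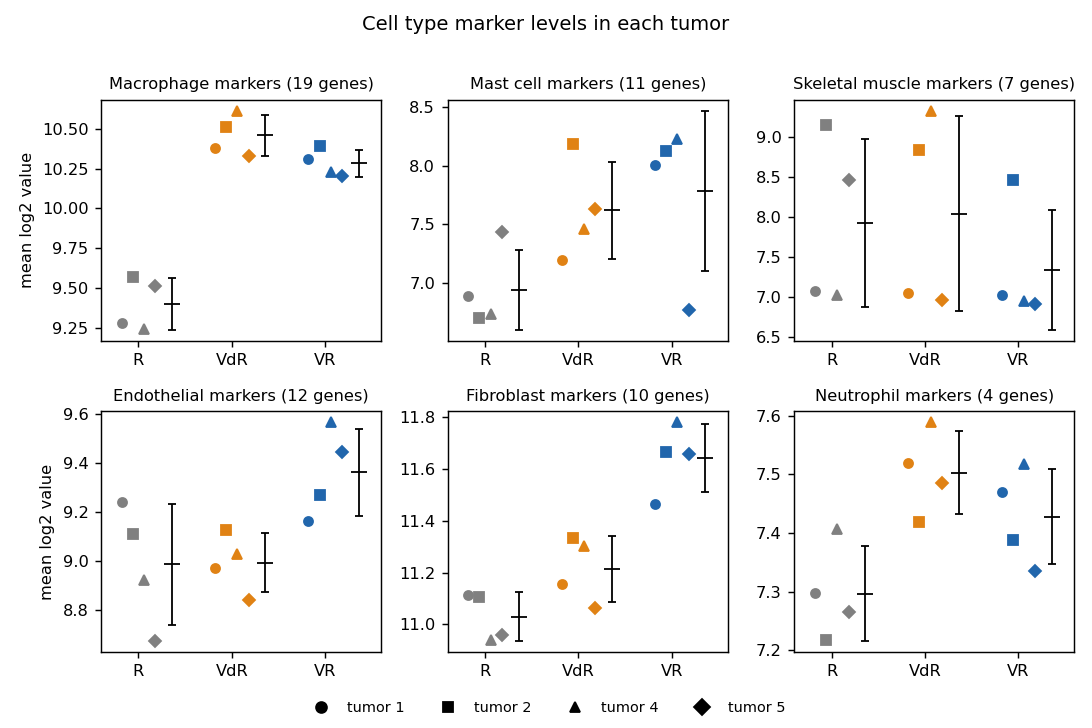
Mean log2 value (vertical axes, which do not start at 0) of the markers of each cell type in single tumors (points, shaped by tumor number) of the R, VdR and VR groups, with black marks for the mean ± SD of 4 tumors. Macrophage markers are higher in every Vnn1 tumor than in any R tumor, mast cell markers place VR tumor 5 with the R tumors, and skeletal muscle markers set 5 tumors apart.

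Fibroblast markers rose in VR tumors, where Ptges and Lta4h fell. The arrays do not tell markers of the grafted myofibroblasts from those of host fibroblasts. The R tumors averaged 10.94 to 11.11, the VdR tumors 11.06 to 11.33 and the VR tumors 11.46 to 11.78. Of the 10 markers, 8 rose in VR versus R, 1 in VdR versus R and 3 in VR versus VdR (all genes 13.6%, 6.58% and 1.77%). Endothelial markers, of cells known for prostacyclin synthesis, averaged between 8.68 and 9.24 for R, between 8.84 and 9.13 for VdR and between 9.17 and 9.57 for VR tumors. Their part in the values of Ptges, Lta4h and Ptgis was not tested.

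Of 63 other genes of eicosanoid biology listed by role, 58 could be named and 55 passed the filter. In VR versus R 9 were higher, 9 were lower and 37 did not pass, where 13.6% of all genes were higher and 7.48% lower. In VdR versus R 8 were higher, 1 was lower and 46 did not pass (all genes 6.58% and 2.81%), and in VR versus VdR 1 was higher, 2 were lower and 52 did not pass (all genes 1.77% and 1.67%). Their median differences were -0.02, 0.01 and -0.02, against -0.01, 0.0038 and -0.02 over all genes tested. The call held when any single tumor was left out for 12 of the 18 genes in VR versus R, 6 of the 9 in VdR versus R and 1 of the 3 in VR versus VdR, and the last count was 1 instead of 3 without VdR tumor 1, VdR tumor 4, VR tumor 2 or VR tumor 4. Only genes whose call held in this way are named below as changed. The counts by role below are given beside the shares of all genes, and nothing is read from them beyond each gene's values.

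Among 16 genes listed under the release of arachidonate, 1 rose and 5 fell in VR versus R (all genes 13.6% and 7.48%). In VdR versus R 1 rose and 1 fell (all genes 6.58% and 2.81%), and in VR versus VdR 1 fell (all genes 1.67%). The 5 that fell include Pla2g7, which was listed with the phospholipases but acts on another substrate. Pla2g7, the secreted acetylhydrolase of platelet-activating factor, ranged over 12.34–12.89 for R, 12.04–12.51 for VdR and 11.67–12.12 for VR tumors, and fell by 0.78 ± 0.14 (SE, limma adjusted p = 0.00273) in VR versus R. Pla2g12a, a secreted phospholipase, fell by 0.30 in VR versus R (limma adjusted p = 0.00383) and by 0.39 in VdR versus R (limma adjusted p = 0.00149). Pla2g6, a calcium-independent phospholipase, lay between 8.92 and 9.28 in R tumors, between 9.12 and 9.32 in VdR and between 8.72 and 8.85 in VR. It fell by 0.31 in VR versus R (limma adjusted p = 0.00997) and by 0.45 in VR versus VdR (limma adjusted p = 0.0126), the latter with limma adjusted p = 0.0735 without the 5 muscle-bearing tumors. The lysosomal phospholipase Pla2g15 rose by 0.46 (limma adjusted p = 0.00177) and by 0.51 (limma adjusted p = 0.00178), the latter with limma adjusted p = 0.0845 without the 5 muscle-bearing tumors. Pla2g4a, the cytosolic phospholipase that supplies both branches, differed by 0.07 in VR versus R (limma adjusted p = 0.637) and by -0.15 in VdR versus R (limma adjusted p = 0.435).

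Of 6 other prostanoid synthases, 1 rose and 1 fell in VR versus R (all genes 13.6% and 7.48%). In VdR versus R 2 rose (all genes 6.58%). Tbxas1, the thromboxane synthase, lay between 6.76 and 7.36 in R tumors, between 7.95 and 8.37 in VdR tumors and between 7.83 and 8.37 in VR tumors, with no overlap of either group with R. It rose by 1.11 ± 0.14 (SE, limma adjusted p = 3.62e-04) in VR versus R and by 1.17 ± 0.14 (limma adjusted p = 3.78e-04) in VdR versus R. Prxl2b, a prostaglandin F synthase, rose by 0.30 in VdR versus R (limma adjusted p = 0.00514), but was at 0.28 with limma adjusted p = 0.102 without the 5 muscle-bearing tumors. The other prostaglandin E synthases did not pass in any comparison, with Ptges2 at -0.10 and Ptges3 at -0.03 in VR versus R.

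Of 13 other lipoxygenase genes, their partners and enzymes of leukotriene conversion, 2 rose in VR versus R and 1 in VdR versus R. None were lower, and of all genes 13.6% and 6.58% were higher in these comparisons. In VR versus R, Ggt5, the transferase that turns leukotriene C4 into D4, rose by 0.39 (limma adjusted p = 0.00879) and Dpep1, the dipeptidase that turns D4 into E4, by 0.93 (limma adjusted p = 0.0144), but neither passed without the 5 muscle-bearing tumors. Mgst2, a membrane transferase that can also form leukotriene C4, did not pass (-0.23, limma adjusted p = 0.369). Alox15, a lipoxygenase of macrophages and eosinophils, lay between 5.53 and 5.92 in all tumors.

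Of 8 genes for the breakdown and transport of these mediators, 3 rose and 2 fell in VR versus R (all genes 13.6% and 7.48%). In VdR versus R 2 rose (all genes 6.58%). Hpgd, the dehydrogenase that inactivates prostaglandin E2, ranged from 6.18 to 6.76 in R, from 7.09 to 7.56 in VdR and from 7.07 to 7.84 in VR tumors. It rose by 0.99 ± 0.17 (SE, limma adjusted p = 0.00178) in VR versus R and by 0.90 ± 0.17 (limma adjusted p = 0.00532) in VdR versus R. In VR versus R, Ptgr2, a prostaglandin reductase, rose by 0.49 (limma adjusted p = 0.00512) and Cyp4f13, of the family that hydroxylates leukotriene B4, by 0.50 (limma adjusted p = 0.0137).

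Of 3 leukotriene and lipoxin receptors tested, 1 rose in VR versus R and in VdR versus R (all genes 13.6% and 6.58% higher). This was Cysltr1, the receptor of the cysteinyl leukotrienes, which lay between 7.16 and 7.72 in R, between 8.21 and 8.70 in VdR and between 8.41 and 8.75 in VR tumors, and rose by 1.19 ± 0.13 (SE, limma adjusted p = 1.40e-04) in VR versus R and by 1.01 ± 0.13 (limma adjusted p = 4.89e-04) in VdR versus R. Of the other leukotriene receptors, Ltb4r1 differed by 0.03 in VR versus R (limma adjusted p = 0.650), and Cysltr2 and Oxgr1 were below the filter. Among 9 prostanoid receptors, 1 rose and 1 fell in VR versus R (all genes 13.6% and 7.48%). In VdR versus R 1 rose (all genes 6.58%). Ptger4, a prostaglandin E2 receptor, lay between 7.63 and 8.53 in R tumors, between 8.51 and 8.72 in VdR and between 9.08 and 9.14 in VR, and rose by 1.00 ± 0.14 (SE, limma adjusted p = 5.92e-04) in VR versus R.

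**Figure D4:**
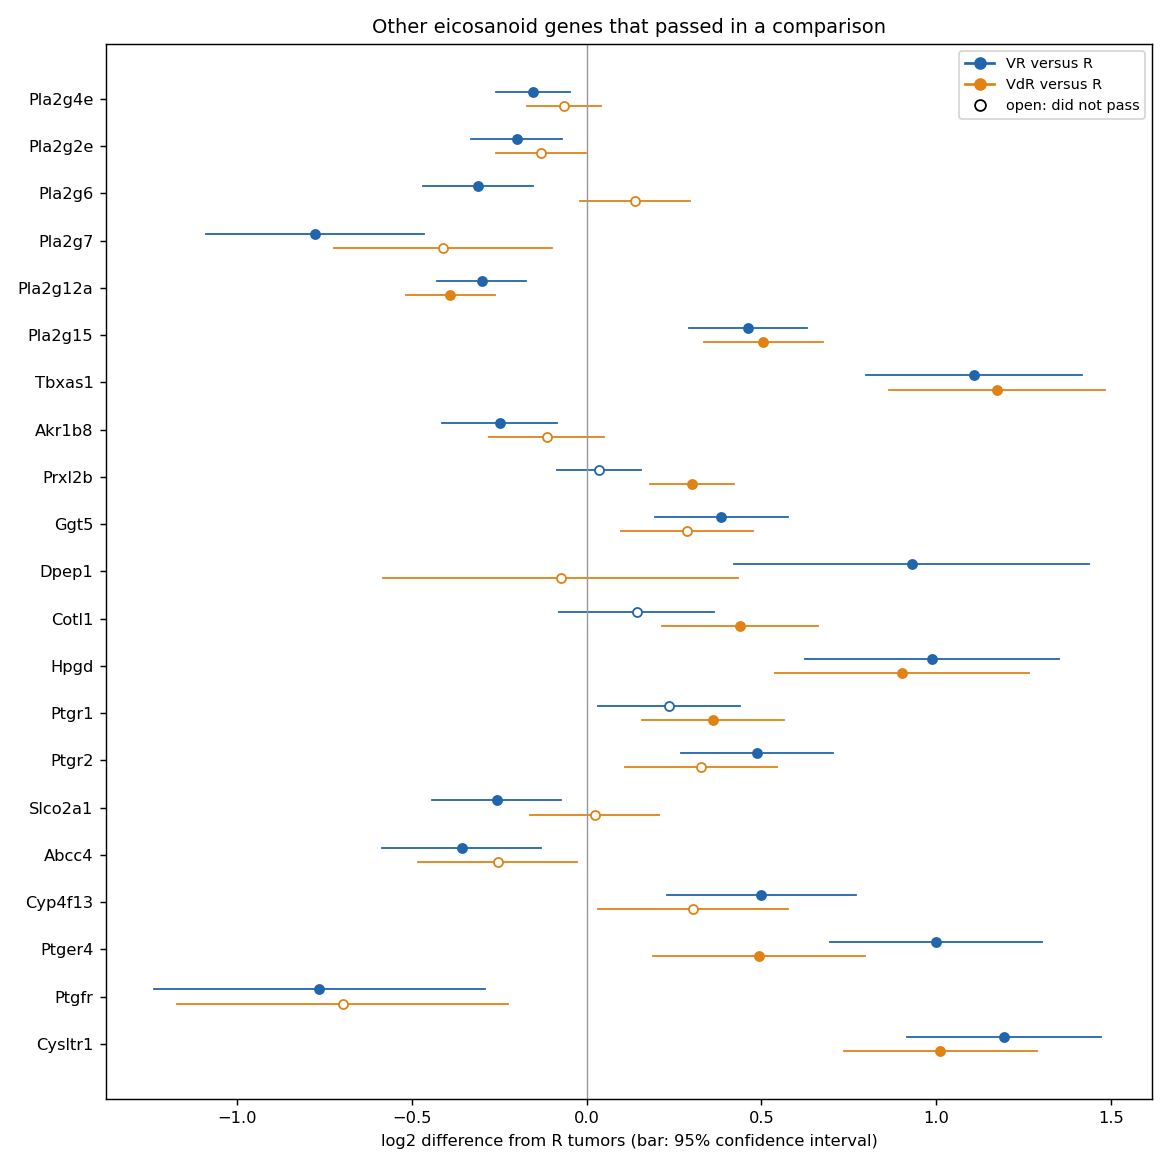
Log2 difference from R tumors (horizontal axis; bars, 95% confidence interval) of the other eicosanoid genes that passed in at least 1 comparison, for VR (blue) and VdR (orange), with open points where the test was not passed. Tbxas1, Hpgd and Cysltr1 lie between 0.90 and 1.19 in both comparisons, and Pla2g7 lies at -0.78 in VR versus R.

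Over the 12 tumors, the log2 values of Ltc4s, Alox5, Alox5ap and Hpgds ran alike, with Pearson's r between pairs from 0.892 to 0.952, and Ptges and Lta4h had an r of 0.805. Among all genes tested, those most like Alox5ap were Trem2 (r = 0.996), Adgre1 (0.991) and Ncf1 (0.988), and those most like Ltc4s were Itgam (0.966), Lyl1 (0.958) and Cbr2 (0.957). Alox5 ran closest to Slc9a9 (0.966), Stard8 (0.965) and Lgmn (0.963), and Hpgds to Txnrd2 (0.990), P2ry12 (0.983) and P2ry6 (0.980). For Lta4h the closest were Greb1 (0.967), Camk2g (0.940) and Zmym2 (0.935), and for Ptges Fkbp4 (0.944), Dlg3 (0.938) and Ppp1ca (0.937). These are descriptions over tumors that share 3 groups, so a difference between groups alone gives a high r.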

How the data were processed

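Tumor RNA was hybridised to Affymetrix Mouse Gene 1.0 ST arrays, and the authors background-corrected, quantile-normalised and summarised the probes by RMA with oligo (versions not given in the sources used here), which yields the deposited log2 intensities per probeset. Of 35556 probesets, 21789 carried 1 symbol in GEO's platform annotation, which can be old, 1621 several and 12146 none, and only the first were used. The probeset with the highest mean stood for a gene. Genes above the 25th percentile (5.38) in at least 4 arrays were tested, 16573 in all. RMA evens out array distributions, so differences are relative to the array as a whole; array medians were 6.66 to 6.77. The number of arrays limits the precision.

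limma 3.58.1 (R 4.3.3; lmFit, eBayes) was fitted to all 12 arrays with 1 coefficient per group, a threshold of 0.05 and Benjamini-Hochberg adjustment; the procedure was tested on simulated data. The methods name no test for single genes of the arrays. The listed genes, the lists by role and cell type and the rule for the genes named (all listed genes, role-list genes that passed, the first markers of each cell list and those below the filter, and the 3 genes most alike) were chosen with earlier results of these data known. Marker scores are means of log2 values. Alternatives were other filters, probeset means, other moderation, array weights, other scalings, a fold minimum, a replicate block, a t-test and leaving out tumors; leaving out the 5 muscle-bearing tumors (score above 8) was chosen after seeing the data. Promoters came from RefSeq (GRCm38.p6), where Alox5ap had no entry.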

Additional observations from a re-analysis of the deposited data

Results flagged for a closer look

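In groups of 4 tumors, the gap between an extreme tumor and its nearest neighbour was divided by the range of the group and set against Dixon's critical value for 4 samples; 99 groups were examined, and chance passes about 1 in 20 of them. The ratio was above it in 5. Alox5 in VdR tumor 2 (0.903) was at 9.20 with the next VdR tumor at 8.55. Ptgs2 in VdR tumor 5 (0.872) was at 11.56, above the next at 11.25. Ptgds in VR tumor 2 (0.881) was at 6.04, below the next at 6.16. The mast cell marker score of VR tumor 5 (0.849) was 6.78, below the next at 8.01, and the skeletal muscle marker score of VR tumor 2 (0.927) was 8.46, above the next at 7.03.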

How the results depend on the processing

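Under 24 alternatives, Alox5, Alox5ap and Hpgds passed in VR versus R and in VdR versus R throughout (highest limma or t-test adjusted p 0.0399). Ltc4s also passed throughout in VdR versus R (0.0302), which shares the R tumors on which it was chosen. Ptgs2, with no call in the design used, was called lower with array weights (VdR versus R -0.43, limma adjusted p = 0.0220; VR versus R -0.33, limma adjusted p = 0.0258) and in VdR versus R after centring (-0.42, limma adjusted p = 0.0462), and Lta4h in VR versus VdR with array weights (-0.27, limma adjusted p = 0.0409). Ptges in VR versus R was lost only by the methods' t-test (named there for qRT-PCR; adjusted p = 0.0724), and in VR versus VdR in 11 of 24. Small differences with no call turned sign: Ptges in VdR versus R (0.0063 without R tumor 4, 0.0204 without R tumor 5, -0.1523 at the other end without R tumor 2), Ptgds in VdR versus R (0.0025 without VdR tumor 2, -0.0727 without VdR tumor 1, 0.0063 without the muscle-bearing tumors), Alox5ap in VR versus VdR (0.0008 without VdR tumor 2, 0.0404 without VR tumor 5, -0.1140 without VdR tumor 5) and Ptgis in VdR versus R (-0.0427 without the muscle-bearing tumors). The cause was not tested.

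Listed genes passing in VR versus VdR were 1 with the design used and 2 with array weights. They were 0 with no filter, with a 1.5-fold minimum, with the methods' t-test or without the muscle-bearing tumors. Leaving out single tumors gave 0 to 2 there, 6 to 6 in VR versus R and 4 to 5 in VdR versus R. The counts against R include Ltc4s, which was chosen on VR versus R, so its pass in that contrast adds nothing. Role-list genes (18, 9 and 3) numbered 7, 3 and 1 with a 1.5-fold minimum, 9, 5 and 1 by the methods' t-test, 13, 6 and 1 without the muscle-bearing tumors, and 22, 12 and 5 with array weights, and were 12 to 18, 6 to 11 and 1 to 4 leaving out single tumors. Of all genes (3500, 1555 and 570), 5667, 2595 and 884 passed with array weights, 967, 496 and 125 at 1.5-fold, 2120, 493 and 30 by the t-test, and 2798, 1120 and 7 without the muscle-bearing tumors; 2458 to 3581, 961 to 1775 and 86 to 748 leaving out single tumors; and 5390 in VR versus R after centring. Replicate numbers did not meet the criterion for pairing (every correlation of deviations over 0.1): it was -0.151 to 0.398, over 0.1 in 8 of 12 pairs, and highest with the own number in 5 of 12, among them tumor 2 in all 3 pairs of groups (0.356, 0.398 and 0.227), which carries muscle markers in each. A replicate block left 6, 4 and 1 listed genes passing. Ltc4s is in the counts of 6 and 4, and its pass in VR versus R adds nothing, as it was chosen on that contrast. Centring on the array median shifted the median of all genes to -0.10, -0.07 and -0.03 and changed the share of calls that were higher from 64.6%, 70.1% and 51.4% to 29.2%, 41.3% and 44.3% (57.7%, 55.9% and 55.7% with cyclic loess).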
